A study of Rattus norvegicus with 8 samples.

Results

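Cytosolic ribosomal protein genes encode the proteins of the small and large subunits of the ribosome, the machine that translates mRNA outside mitochondria. Their mRNAs are short, very abundant and made in balanced amounts, and most begin with a run of pyrimidines, the 5′ terminal oligopyrimidine (TOP) motif, through which growth signals acting on mTOR and Larp1 control their translation. In lung, as in other tissues, they are expressed in every cell type, so their level in tissue RNA is a sum over all cells present. The members described here were chosen by name, as genes whose only platform symbol starts with Rpl, Rps or Rplp and a digit, without the Rps6k kinases, and the brightest probe set (the group of array probes that reads 1 transcript) stood for each gene. This gave 45 genes, read by 50 probe sets, out of 11217 genes with such a symbol on the array. They comprised 12 of 30 listed proteins of the small subunit, 27 of 43 of the large subunit, the stalk protein Rplp0, and 5 paralogs or pseudogenes (Rpl7l1, Rps27l, Rps4y2, Rpl37-ps2 and Rps4x-ps1). A further 36 probe sets carried several symbols that included a ribosomal protein name, most of them a gene with like-named copies or pseudogenes, and were kept apart. The stalk gene Rplp1 was read only by such a probe set, and Rplp2 was not analysed here.

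The RNA came from the dorsal-caudal quadrant of lungs of male Harlan Sprague-Dawley rats of 340 to 400 g of unstated age. Of the 8 animals, 2 were non-ventilated controls, 3 were ventilated prone and 3 supine. Ventilation in both positions used large breaths (tidal volume 18 mL per kg, 40 breaths per minute) and 0 cmH2O of positive end-expiratory pressure, for up to 3 hours, in rats under anaesthesia with a tracheotomy and a jugular cannula. Supine titles read SVt where prone ones read HVt; the condition label, high Vt in both, was followed. The labels do not say whether controls were anaesthetised or operated on, so these steps cannot be told apart from ventilation. By their titles the arrays are biological replicates, and their number limits the precision of all values.

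All values are log2 signals, so a difference of 1 is a 2.0-fold change, and the number after ± is a standard error from the model unless SD is stated. All 8 alveolar type 2 markers (surfactant proteins and associated genes) were tested, with list means of 13.07 to 13.96 on the 8 arrays. The array of supine replicate 3 differed from the rest in a measure of RNA quality, the gap between 3′ and 5′ probe sets of 1 gene. Its beta-actin gap was 9.10, against 3.16 to 4.64 on the other arrays. The 14 bacterial control probe sets of the bio series had a median of 9.39 and 9.47 on the control arrays, 9.86, 10.87 and 10.53 on the prone and 10.35, 9.34 and 11.33 on the supine arrays. Supine values without it are given beside many of the results below.

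The start sites of some members are shown here because they hold the TOP motif or lack it at the annotated first base. RefSeq start windows of the GRCr8 assembly were found for 37 of the 45 genes. Each line gives the 10 bases before and the 20 from the annotated start, 5′ to 3′ on the gene's strand, with capitals marking a first-base C and the unbroken run of C and T that follows it, where at least 4 such bases follow. The genes are 4 with a long run (Rpl19, Rpl22, Rps15 and Rpl28), the stalk gene Rplp0, and Rps3, Rps24 and Rps4y2, which had large differences and no such run at this base.
Rpl19 (chr10:83519054-83519083, plus strand): ccagcaagctCTTTCCTTTCgctgctgcgt
Rpl22 (chr5:168117951-168117980, plus strand): gcgcccccctCCCTTTCTgcctcctctgcc
Rps15 (chr7:10068096-10068125, minus strand): acaccgcttcCTTTTCCCagcagccgccaa
Rpl28 (chr1:78083513-78083542, minus strand): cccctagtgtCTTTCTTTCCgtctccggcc
Rplp0 (chr12:46718371-46718400, minus strand): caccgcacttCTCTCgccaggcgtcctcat
Rps3 (chr1:163195757-163195786, minus strand): ttcagcggcgcgcggcagcaagatggcggt
Rps24 (chr16:96507-96536, plus strand): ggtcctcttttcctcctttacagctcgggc
Rps4y2 (chr4:183000903-183000932, plus strand): cagctctcctcactcgcttgtgctctggga

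A C followed by at least 4 pyrimidines at the annotated first base was present in 11 of 37 members (29.7%) and in 2.63% of all 33469 start windows. Allowing it to begin and end anywhere from 10 bases before to 15 after the start raised these shares to 70.3% and 28.9%. In the Rps24 window above, a pyrimidine-rich stretch spans the annotated start, which may not be the first base used. On either strand of the 300-base window, the motif CCGGAAGT was found in 13.5% of members and 3.81% of all promoters, AAGATGGCG in 8.11% and 1.73%, and TATAA in 18.9% and 26.2%. These shares are 5, 3 and 7 of the 37 members. In Rps3 and Rpl13a, AAGATGGCG lies after the annotated start and holds an ATG, and what it does there was not tested. None of these motifs contains another, and each was counted on its own. Among genes read by a bright probe set (defined next), the 9 with the strict TOP start had a median difference of -0.23 in prone against control lungs and -0.34 in supine against control, and the 22 without it -0.17 and -0.26. Their ranges overlapped, at -0.36 to 0.05 and -0.41 to 0.17 in prone lungs. In supine lungs they were -0.64 to -0.11 and -0.87 to -0.08. With the wider window 21 of these 31 genes held such a run, so some of the 22 have one near the annotated start.

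The probe sets of the members fell into a bright and a dim class with a wide gap between them, and most members of the bright class were lower, most of the dim class higher, in ventilated lungs. A total of 37 genes were read by a probe set with a mean over the 8 arrays between 12.99 and 15.36 (the highest value on any array was 15.72). The other 7 tested genes had means of 5.10 to 10.93. Rps4x-ps1, a transcribed pseudogene in RefSeq, read 3.00 to 3.88 on all 8 arrays and was not tested. The bright class, mean 12 or above, holds nearly all core subunit proteins and was defined after the values were seen, so its counts are descriptions. A bright probe set and a dim one differ in probes as well as target, so levels are compared only within a probe set.

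In prone lungs, 32 of the 37 bright members were lower than in controls, by small amounts. Their median difference was -0.16, with a range from -0.41 to 0.17. Of the bright probe sets of other genes 60.8% were lower too, and of all tested ones 56.5%. Over all 44 tested members the median was -0.15 and 33 were lower, while the median over all 16896 tested probe sets was -0.12 and over the 958 bright probe sets of other genes -0.11. When each array was centred on its own median, the median of all probe sets became 0.03 and that of the bright members -0.02. No member passed an adjusted p under 0.05 (limma, Benjamini-Hochberg over all probe sets, which passed 0.0533% of them). At an unadjusted p under 0.05 there were 3 of 44, against 17.7% of all probe sets. The 3 include Rps13, which entered the test only through its values on ventilated arrays.

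In supine lungs 36 of the 37 bright members were lower than in controls, with a median of -0.26 and a range from -0.87 to 0.07. Of the bright probe sets of other genes 62.5% were lower too, and of all tested ones 53.8%. The medians over all tested probe sets and over the other bright ones were -0.07 and -0.14. Centring the arrays gave a bright members' median of -0.19, a further quantile normalization -0.16 and leaving out supine replicate 3 -0.24. Again 0 of 44 members passed (limma, 0.0533% of all probe sets), and 5 of 44 had an unadjusted p under 0.05, against 15.2% of all. Taking the 6 ventilated arrays together against the 2 controls, the bright members' median was -0.23. Centring gave -0.12, a further quantile normalization -0.16 and leaving out supine replicate 3 -0.21. In this comparison 0 of 44 members passed (0.142% of all probe sets) and 4 of 44 had an unadjusted p under 0.05 (19.2% of all). The 5 and the 4 both include Rps13, which entered the test only through its values on ventilated arrays. Both positions were compared with the same 2 control arrays, so their differences are not independent.

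Array by array, the bright members' medians were lower on every ventilated array than on both controls. The median deviation from the control mean was 0.02 and -0.02 on control replicates 1 and 2. It was -0.30, -0.14 and -0.10 on prone replicates 1 to 3. It was -0.22, -0.27 and -0.38 on supine replicates 1 to 3. The same medians for bright probe sets of other genes were -0.06, -0.14 and -0.10 on the prone arrays and -0.11, -0.02 and -0.19 on the supine arrays. Prone replicate 1 and all supine arrays thus held the larger shifts of the ribosomal protein genes, while prone replicates 2 and 3 matched the other bright probe sets. Of the 37 bright members, 35, 28 and 23 lay below both controls on prone replicates 1 to 3, and 32, 33 and 33 on the supine ones, which is 62.2% to 94.6% of them. Of the bright probe sets of other genes 45.9% to 60.2% lay below both controls on these arrays, and of all tested probe sets 42.1% to 51.7%.

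**Figure D1:**
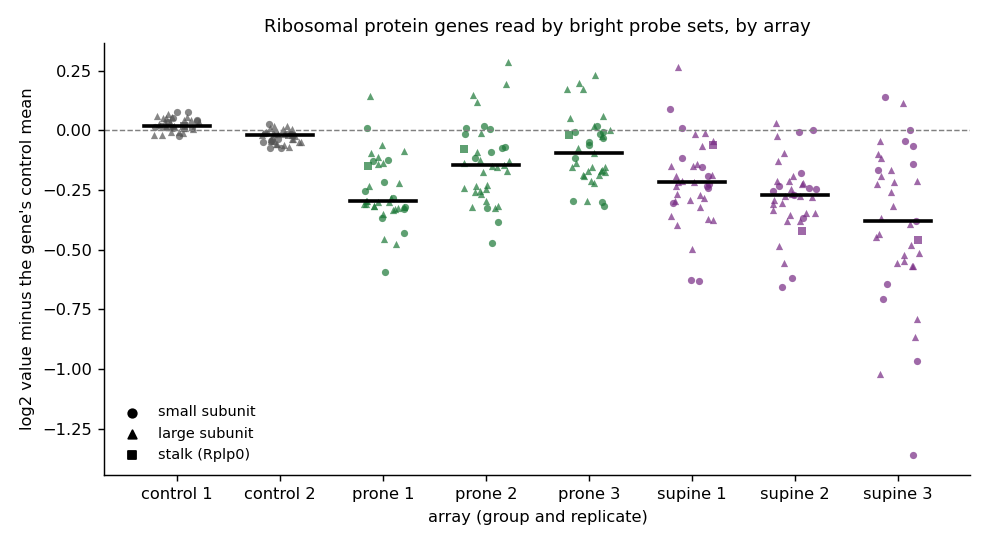
Each point is 1 of the 37 bright ribosomal protein genes on 1 array, as its log2 value minus the mean of that gene on the 2 control arrays (y axis), by array (x axis), with circles for small-subunit, triangles for large-subunit genes and a square for Rplp0. Black bars are medians, which lie at -0.10 to -0.38 on the 6 ventilated arrays, and the points spread most on supine replicate 3.

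In 22 of the 37 bright members every ventilated array lay below both control arrays. Over all 44 tested members that count was 23, or 52.3%, against 16.7% of all tested probe sets and 20.6% of the bright ones of other genes, and in 3 members every ventilated array lay above them (12.9% of all). For prone arrays alone 24 of 44 members lay below both controls (27.7% of all probe sets) and 5 above (20.9%). For supine arrays alone 29 lay below (21.8% of all) and 4 above (20.0%). Each count above the controls includes Rps13, which entered the test only through its values on ventilated arrays. Leaving out supine replicate 3 could only keep or raise the count of 22 bright members, and it stayed at 22. The bright members varied little between replicates, with a median residual SD of 0.127 against 0.312 for the other bright probe sets and 0.524 for all tested ones. The model draws each probe set's spread toward a common value, which gave the bright members a median SE of 0.262 in the prone comparison, larger than most of their differences.

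Small-subunit genes with bright probe sets, 11 in all, had a median difference of -0.13 in prone and -0.19 in supine lungs. Rps3, which lies at the entry of the mRNA channel, read 13.95 and 13.93 on the controls, 13.51, 13.47 and 13.64 on the prone and 13.31, 13.32 and 12.58 on the supine arrays. All ventilated arrays were below both controls, and all supine arrays below all prone ones. Its difference was -0.40 ± 0.32 in prone (adjusted p = 0.551, limma) and -0.87 ± 0.32 in supine lungs (adjusted p = 0.291, limma), or -0.63 in supine without replicate 3. Rps15, whose tail reaches the decoding site, read 14.47 and 14.32 on the controls, 14.03, 14.01 and 14.08 on the prone and 14.09, 13.74 and 13.43 on the supine arrays. All ventilated arrays lay below both controls, while the prone and supine arrays overlapped. The differences were -0.36 ± 0.29 and -0.64 ± 0.29 (adjusted p = 0.56 and 0.346, limma), the second -0.48 without supine replicate 3. Rps24, one of the genes mutated in human Diamond-Blackfan anaemia, read 15.22 and 15.15 on the controls, 14.59, 14.86 and 14.89 on the prone and 14.56, 14.95 and 14.54 on the supine arrays. All ventilated arrays were below both controls and the 2 positions overlapped, with differences from control of -0.41 ± 0.28 and -0.51 ± 0.28.

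Rps6, the ribosomal protein that S6 kinases phosphorylate, had smaller differences. It read 14.48 and 14.45 on the controls, 14.21, 14.47 and 14.46 on the prone and 14.23, 14.21 and 14.40 on the supine arrays, and prone arrays overlapped the controls. Its differences were -0.09 ± 0.26 and -0.19 ± 0.26, and the first turned to 0.06 with centred arrays. Rps29, a small zinc-finger protein, was the 1 bright member with a supine mean above the control mean. It read 15.34 and 15.32 on the controls, 15.34 to 15.35 on the prone arrays and 15.42, 15.33 and 15.47 on the supine arrays, with differences of 0.01 ± 0.25 and 0.07 ± 0.25. The remaining bright small-subunit genes, Rps3a, Rps9, Rps15a, Rps16, Rps23 and Rps28, differed from controls by -0.16 to -0.05 in prone and by -0.40 to -0.09 in supine lungs.

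Large-subunit genes with bright probe sets, 25 in all, had median differences of -0.21 in prone and -0.26 in supine lungs, and all 25 were lower in supine lungs. Rpl22, an RNA-binding protein with a close paralog in Rpl22l1, read 14.55 and 14.52 on the controls, 14.06, 14.22 and 14.24 on the prone and 14.14, 13.98 and 14.17 on the supine arrays. No ventilated array reached a control, and the differences were -0.36 ± 0.25 and -0.44 ± 0.25. Rpl24, which helps bridge the subunits, read 14.51 and 14.48 on the controls, 14.04, 14.24 and 14.34 on the prone and 14.00, 14.15 and 13.63 on the supine arrays. It was lower on every ventilated array, by -0.29 ± 0.28 and -0.57 ± 0.28 on average, the second -0.42 without supine replicate 3. Rpl5 and Rpl11 form, with a small ribosomal RNA, the particle that binds Mdm2 and stabilises p53 when ribosome assembly fails. Rpl11 read 14.33 and 14.34 on the controls, 14.05, 14.01 and 14.16 on the prone and 14.05, 13.99 and 13.89 on the supine arrays, with differences of -0.26 ± 0.25 and -0.36 ± 0.25. Rpl5 differed by -0.17 ± 0.26 and -0.28 ± 0.26, and both genes were lower on every ventilated array than on both controls. The stalk base Rplp0, often used as a reference gene, differed by -0.09 ± 0.27 in prone lungs, or 0.06 with centred arrays, and by -0.32 ± 0.27 in supine lungs.

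Among bright large-subunit genes Rpl18, Rpl21, Rpl4 and Rpl14 had prone means above the control mean. Rpl18 read 13.95 and 13.84 on the controls, 14.04, 14.09 and 14.07 on the prone and 14.16, 13.87 and 13.38 on the supine arrays, so that only the prone arrays all lay above the controls (0.17 ± 0.31, adjusted p = 0.813, limma). Rpl21, Rpl4 and Rpl14 differed by 0.11 ± 0.27, 0.07 ± 0.29 and 0.05 ± 0.33 in prone lungs. Rpl14 read 13.15 and 13.19 on the controls, 13.11, 13.16 and 13.40 on the prone and 12.81, 12.96 and 12.15 on the supine arrays. Its supine difference was -0.53 ± 0.33, or -0.29 without replicate 3.

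**Figure D2:**
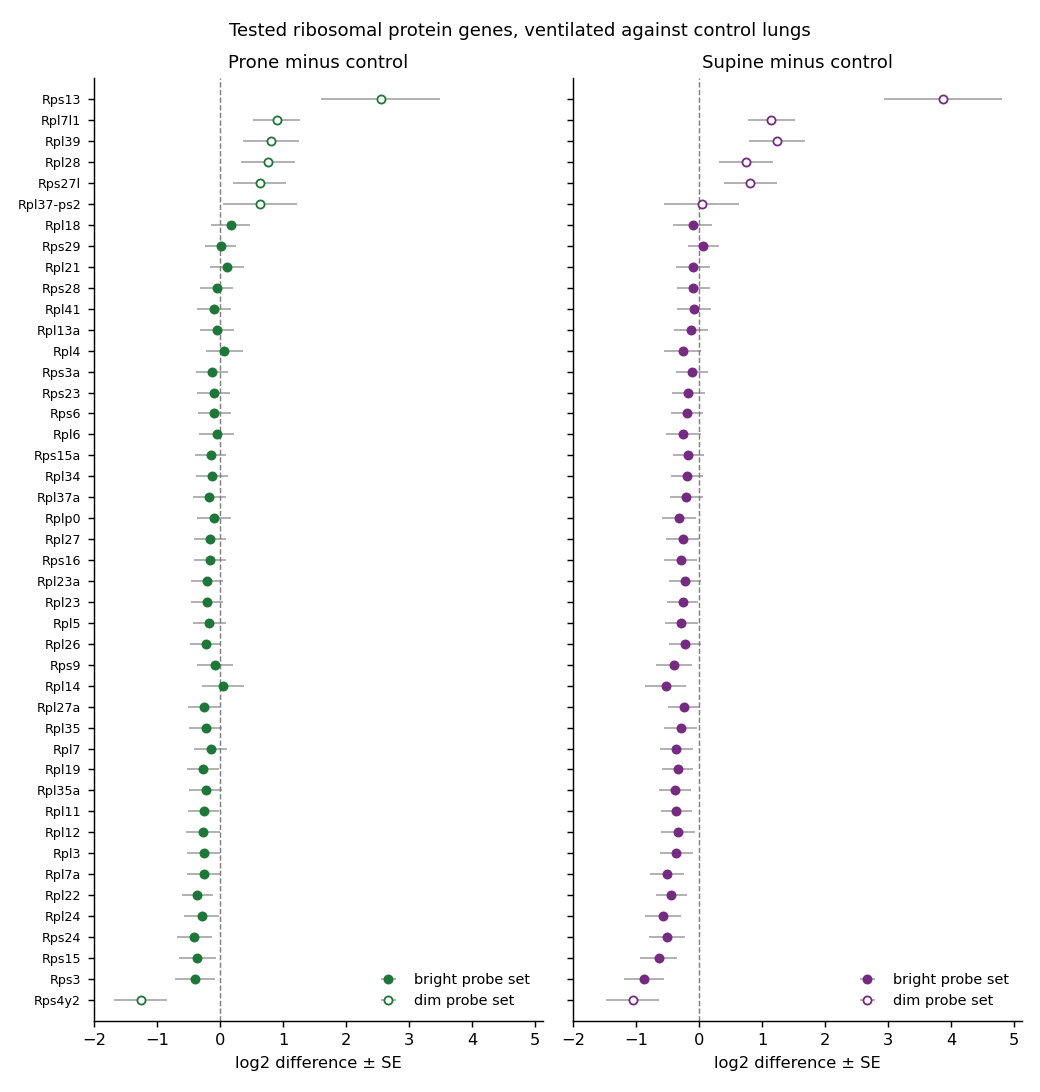
Log2 difference of each of the 44 tested ribosomal protein genes (rows, ordered by the mean of both ventilated groups against controls) in prone (left) and supine (right) against control lungs, with bars of 1 SE from limma. Filled points are bright probe sets and lie between -0.87 and 0.17; open points are dim ones and reach 3.87 for Rps13.

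The dim class held 7 tested genes, and 6 of them were higher in both prone and supine lungs, with medians over the class of 0.76 and 0.81. Among all 16896 tested probe sets, 7353 were higher in prone and 7811 in supine lungs. The 6 dim genes include Rps13, which could enter the test only by being higher in ventilated lungs. The count of 6 and the class medians thus rest partly on the filter. None passed an adjusted p under 0.05 (limma). Rps13, a small-subunit protein, read 2.93 and 2.46 on the controls, 6.03, 4.85 and 4.85 on the prone and 6.69, 4.72 and 8.29 on the supine arrays. Every ventilated array was above both controls, but both controls, and 3 of the ventilated arrays, lay under the filter level of 5. This probe set passed that filter only through ventilated arrays, so it could enter the test only by being higher there. Its fitted differences of 2.55 and 3.87, the second 3.01 without supine replicate 3, therefore have no firm base in the controls and are given as values only. Another probe set, which lists Rps13 beside 3 like-named copies, read 14.65 and 14.54 on the controls, 14.42, 14.34 and 14.39 on the prone and 14.51, 14.24 and 14.33 on the supine arrays, and was 0.21 and 0.23 lower.

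Rpl39, which lines the exit tunnel of the large subunit, read 7.17 and 6.21 on the controls, 7.67, 7.43 and 7.39 on the prone and 7.86, 7.38 and 8.55 on the supine arrays. Every ventilated array was higher, by 0.81 ± 0.44 and 1.24 ± 0.44 (adjusted p = 0.385 and 0.281, limma), the second 0.93 without supine replicate 3. The controls differed widely, and without control replicate 2 these differences were 0.33 and 0.76. Rpl28 read 5.33 and 5.28 on the controls, 5.89, 6.16 and 6.14 on the prone and 6.56, 5.20 and 6.38 on the supine arrays. Supine replicate 2 lay below the controls, and the differences were 0.76 ± 0.43 and 0.74 ± 0.43, the second 1.17 without that array and 0.48 without supine replicate 1. A bright probe set that lists Rpl28 with 2 other symbols read 14.22 and 14.20 on the controls, 14.02, 14.06 and 14.14 on the prone and 14.18, 13.89 and 13.82 on the supine arrays, lower on every ventilated array, by 0.14 and 0.25 on average.

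Of the paralogs, Rpl7l1, a relative of Rpl7 known in human cells from precursors of the large subunit, read 10.11 and 10.21 on the controls, 11.45, 11.06 and 10.69 on the prone and 11.64, 10.81 and 11.50 on the supine arrays. All ventilated arrays were higher, by 0.90 ± 0.37 in prone and 1.15 ± 0.37 in supine lungs (adjusted p = 0.265 and 0.259, limma), the second 1.06 without supine replicate 3. Its counterpart Rpl7 differed by -0.15 ± 0.26 and -0.36 ± 0.26. Rps27l, a paralog of Rps27 that p53 induces in human cells, read 7.83 and 8.44 on the controls, 9.20, 8.79 and 8.30 on the prone and 9.48, 8.78 and 8.57 on the supine arrays. Prone replicate 3 overlapped the controls, and the differences were 0.63 ± 0.42 and 0.81 ± 0.42, or 0.32 and 0.50 without control replicate 1. A bright probe set that lists Rps27 with other symbols differed by -0.21 and -0.22. Rps4y2, a relative of Rps4x that lies on rat chromosome 4, was the only dim gene that was lower. It read 8.13 and 8.55 on the controls, 7.48, 6.52 and 7.25 on the prone and 7.83, 7.0 and 7.04 on the supine arrays, all below both controls, by -1.26 ± 0.42 and -1.05 ± 0.42 (adjusted p = 0.195 and 0.304, limma), the second -0.93 without supine replicate 3. The probe set that lists Rps4x with a pseudogene differed by -0.06 and -0.24. The transcribed pseudogene Rpl37-ps2 overlapped between groups, at 0.64 ± 0.59 and 0.04 ± 0.59, and the second was -0.38 without supine replicate 3.

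Genes with more than 1 probe set gave the comparison within a gene. There were 5 such genes, and their second probe sets were all dim. That of Rps24 read 7.34 and 6.41 on the controls, 9.60, 7.32 and 7.24 on the prone and 8.53, 8.83 and 10.31 on the supine arrays, so it was 1.17 ± 0.84 higher in prone and 2.35 ± 0.84 higher in supine lungs (adjusted p = 0.51 and 0.285, limma), while the bright one was lower. The second probe set of Rpl7 was 1.27 ± 0.50 and 0.30 ± 0.50 higher, and that of Rpl3 0.33 ± 0.31 higher in both. The second probe set of Rpl7l1 was 0.46 ± 0.58 and 0.26 ± 0.58 higher, and that of Rpl14, at 3.88 to 5.15, was not tested. Opposite signs in bright and dim probe sets of 1 gene thus occurred for Rps24, Rpl7 and Rpl3, as for Rpl28 above, and no probe set of these genes passed in either comparison. What the dim probe sets bind was not tested.

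**Figure D3:**
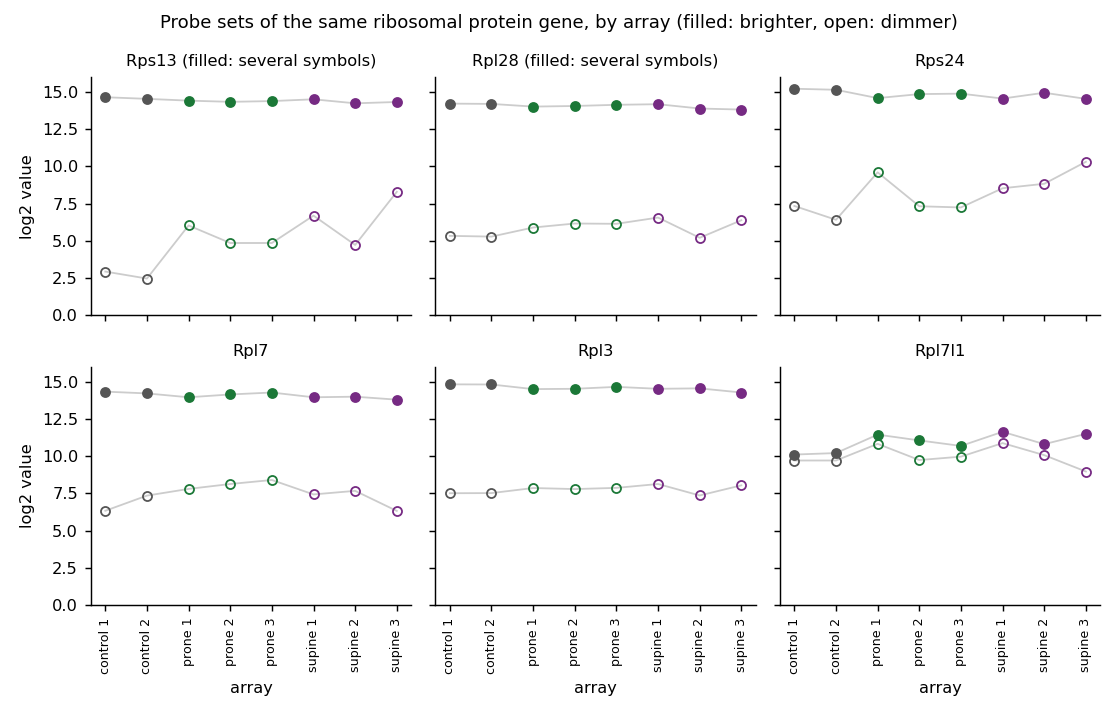
Log2 value (y axis) on each array (x axis) of a bright (filled) and a dim (open) probe set of Rps13, Rpl28, Rps24, Rpl7 and Rpl3, and of the brighter and the dimmer probe set of Rpl7l1, in grey for control, green for prone and purple for supine lungs; the lines join values of 1 probe set. The bright probe sets lie nearly flat near 14 to 15, while the dim ones of Rps13 and Rps24 reach 8.29 and 10.31 on supine replicate 3.

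Of the 36 probe sets with several symbols, which the choice of members did not use, 33 were bright, and 31 of the 33 were lower in prone and 31 in supine lungs, with medians of -0.21 and -0.32. Of the bright probe sets of other genes 60.8% and 62.5% were lower. In 22 of the 33 (66.7%) every ventilated array lay below both controls, against 16.7% of all tested probe sets and 20.6% of the bright ones of other genes. Of the 3 dim ones, 1 that lists copies of Rpl37 read 4.86 and 4.41 on the controls, 8.64, 6.18 and 6.46 on the prone and 7.26, 7.22 and 8.95 on the supine arrays. It was higher on every ventilated array, by 2.46 and 3.17 on average. Both controls lay under the filter level of 5, so it could enter the test only by being higher on ventilated arrays. Like those of Rps13, its differences are given as values only. All these probe sets were read on the same arrays as the members, so they are no independent replicate.

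Between the ventilated positions, 32 of the 37 bright members were lower in supine than in prone lungs, with a median of -0.10, against 0.03 over all tested probe sets and -0.03 over other bright ones. Of all tested probe sets 47.1% were lower, and of the other bright ones 54.1%. After another quantile normalization the bright members' median turned to 0.03, and without prone replicate 1 it was -0.16, without prone replicate 3 -0.05 and without supine replicate 3 -0.08. No member passed (limma, 0.0% of all probe sets), and 0 of 44 had an unadjusted p under 0.05, against 4.09% of all. The supine arrays lay below all prone arrays for 3 of 44 members (2.11% of all probe sets), Rpl14, Rps3 and Rpl7a, and above them for 0 (3.78% of all). The largest supine deficits were -0.61 ± 0.53 for Rpl37-ps2, -0.58 ± 0.29 for Rpl14, -0.47 ± 0.29 for Rps3, -0.33 ± 0.26 for Rpl4 and -0.32 ± 0.26 for Rps9. The deficit of Rpl37-ps2 was -1.02 without supine replicate 3 and -0.08 without supine replicate 1. Without supine replicate 3 those of Rpl14, Rps3, Rpl4 and Rps9 were -0.34, -0.23, -0.20 and -0.16. The largest supine excesses were 1.32 ± 0.84 for Rps13, 0.43 ± 0.39 for Rpl39, 0.25 ± 0.33 for Rpl7l1, 0.20 ± 0.37 for Rps4y2 and 0.18 ± 0.38 for Rps27l. Without supine replicate 3 these were 0.46, 0.12, 0.16, 0.33 and 0.37. Rps13 passed the filter only through ventilated arrays.

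Genes that work with the ribosome were set beside the members from fixed lists. The 73 genes of the mitochondrial ribosome, which translates the mitochondrial genome, had medians of -0.32 in prone and -0.15 in supine lungs, 55 and 47 of them lower and 0 past the adjusted threshold. Of all tested probe sets 56.5% and 53.8% were lower. Initiation factors load mRNA and the first tRNA onto the small subunit, and their list of 49 genes also holds the repressor genes Eif4ebp2 and Eif4ebp3. Of the 49, 27 were higher in each position, with medians of 0.03 and 0.12. The 12 other genes with TOP mRNAs, among them elongation factors, had medians of 0.06 and -0.27. None of these lists had a member past the adjusted threshold (limma), and at an unadjusted p under 0.05 the mitochondrial list had 8 in prone and 4 in supine lungs, the initiation factors 5 and 3 and the other TOP genes 1 and 1, against 17.7% and 15.2% of all probe sets. Rpsa, the small-subunit protein outside the naming pattern, differed by 0.08 ± 0.28 and -0.07 ± 0.28.

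**Figure D4:**
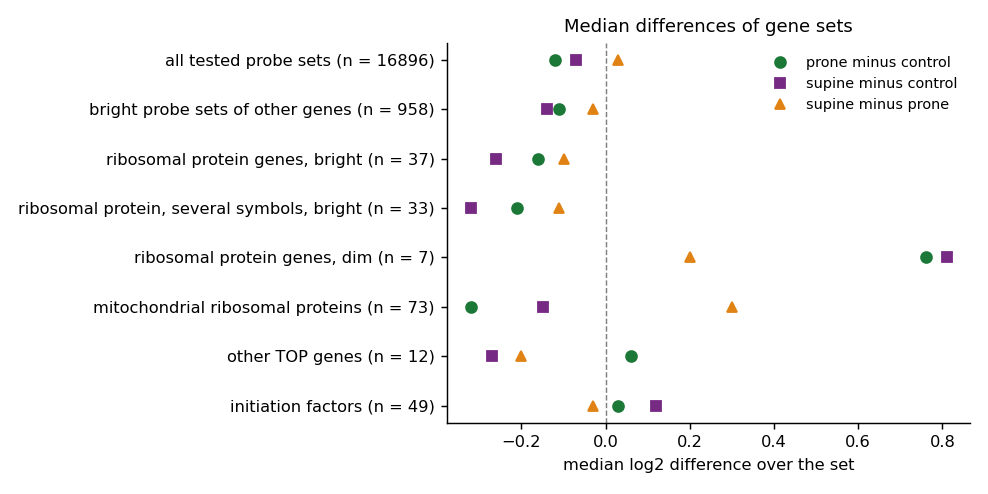
Median log2 difference (x axis) over 8 sets of probe sets or genes (rows, with the number tested), in prone against control (circles), supine against control (squares) and supine against prone lungs (triangles). Bright ribosomal protein genes lie at -0.16, -0.26 and -0.10, and the 7 dim ones, which include Rps13, at 0.76, 0.81 and 0.20.

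Regulators of ribosome production and use held single genes with larger differences, none past the adjusted threshold. Of 17 mTOR pathway and TOP regulator genes, Eif4ebp3, which encodes a repressor of cap-dependent initiation, was 0.88 ± 0.27 and 0.74 ± 0.27 higher in prone and supine lungs, and Eif4ebp2, of the same family, differed by -1.83 ± 0.66 and -1.97 ± 0.66. Both genes also belong to the initiation factor list above. Among 6 tested kinases of the Rps6k group, 3 were higher and 3 lower in each position. Rps6kc1 was 1.18 ± 0.39 and 1.37 ± 0.39 higher, while Rps6kb1, which encodes the main S6 kinase, differed by -1.01 ± 0.49 in prone lungs and stood 1.32 ± 0.44 higher in supine than in prone lungs (adjusted p = 0.942, limma). Of 9 genes of the Myc network, which drives transcription of ribosomal genes, Myc was 2.17 ± 0.70 and 2.16 ± 0.70 higher (adjusted p = 0.187 and 0.261, limma), and Mxd1, which opposes Myc, 2.19 ± 0.53 higher in prone lungs and 1.79 ± 0.48 higher over all ventilated lungs. Mycl, a relative of Myc, differed by -1.32 ± 0.40 in supine lungs, and 4 of the 9 were lower in each position. Of 7 genes of the p53 response, the cell cycle inhibitor Cdkn1a was 1.49 ± 0.60 and 1.76 ± 0.60 higher. The cell death gene Bbc3 differed by -1.34 ± 0.55 in prone and the stress gene Sesn1 by -1.21 ± 0.55 in supine lungs, and 4 of the 7 were lower in each position, with medians of -0.24 and -0.04.

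Cell type markers also differed on the same arrays. In RNA from whole tissue, fewer cells of a type and less RNA per cell cannot be told apart. All 11 tested lymphocyte markers were lower in both positions, with medians of -2.73 and -1.71, and their mean level was 7.63 to 9.01 on the controls, 4.53 to 6.29 on the prone and 6.08 to 7.45 on the supine arrays. Of 9 tested neutrophil markers 8 were higher, with medians of 2.55 and 2.44 and mean levels of 7.53 to 7.76 on the controls, 8.99 to 11.86 on the prone and 9.23 to 11.36 on the supine arrays. For comparison, 56.5% and 53.8% of all tested probe sets were lower in prone and supine lungs. The prone and supine medians were -2.35 and -3.00 for mesothelial (1 and 2 of 7 markers past the adjusted threshold in limma, against 0.0533% of all probe sets in each comparison), -0.83 and -0.85 for alveolar type 1, -0.37 and -0.24 for alveolar type 2, -0.61 and -0.58 for endothelial and -0.32 and -0.14 for macrophage markers. They were 1.00 and 0.30 for erythroid, 2.46 and 1.99 for cardiac and 1.99 and 2.57 for skeletal muscle markers. The cardiac values rested on few arrays, since the list's mean level was 2.93 and 2.88 on the controls, 3.95, 9.06 and 3.09 on the prone and 3.84, 3.29 and 7.56 on the supine arrays. On both controls this mean lay under the filter level of 5. A marker under that level on both controls could enter the test only by being higher on ventilated arrays. The cardiac medians therefore rest partly on the filter and are given as values only. The part of these shifts, of the RNA quality of supine replicate 3 and of the spike levels in the ribosomal protein values was not tested.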

How the data were processed

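RNA (300 ng per sample) was labelled with biotin and hybridised to 1-colour Affymetrix rat arrays. The authors deposited log2 values, 1 per probe set; per the submitters' processing notes they used GCRMA, which corrects background, quantile-normalizes and summarises probes, and Partek 6.5. Other steps: not given in the sources used here. Detection calls were not used. The 28 control probe sets were set aside. The filter on low values, a log2 value of at least 5 on 2 or more of the 8 arrays, left 16896 of 20214 other probe sets for testing. limma 3.58.1 (R 4.3.3) fitted the group means over the 8 arrays jointly (5 residual and 2.51 prior degrees of freedom), two-sided, with Benjamini-Hochberg adjustment per comparison over all probe sets tested; it was tested on simulated data. P-values measure only the spread between these samples. Gene symbols are those of GEO's platform annotation; 43 of 45 members matched RefSeq (GRCr8) by gene identifier, with the same symbol. Start windows are from RefSeq.

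Deviations from group means over tested probe sets correlated between samples with the same replicate number. The correlations were 0.721, 0.293 and 0.196 between prone and supine, and 0.109 to 0.333 with controls. Of the prone arrays, 2 correlated best with the supine array of their own number. The labels do not state pairs, and the main fit used none. Replicate number entered only the alternative called the replicate block. The members and lists were chosen with earlier results of these data known. Genes named were, per comparison, the 5 members with the largest rise and the 5 with the largest fall, and up to 2 genes per context list by smallest p. Rplp0, Rps6, Rpl5, Rpl11 and each paralog with its counterpart were also named, except that Rpl37-ps2 was given without a counterpart. Other members named were chosen after their values were seen. Of the context lists the text gives only some of these genes.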

Additional observations from a re-analysis of the deposited data

How the results depend on the processing

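The fits were repeated under 18 alternatives, 8 of which left out 1 array; 1, without the first prone and supine arrays, and the bright class were added after seeing the data. The count of members called stayed at 0 in every comparison except as follows. With estimated array weights, which gave the 2 controls a weight of 4.67 each, 4 members passed in prone lungs (Rps4y2, Rps13, Rpl7l1 and Rpl28) and 5 in all ventilated lungs (these with Rps3), while 33.9% and 27.8% of all probe sets passed. Leaving out 1 array gave 0 to 1 in supine and in all ventilated lungs, the 1 being Rps13 without supine replicate 2 (4.79 and 3.67), where 0.906% and 2.25% of all probe sets passed; Rps13 passed the filter only through ventilated arrays. A fit of only the groups compared was not run for all ventilated lungs. Results of the replicate block changed no call: the medians over members were -0.16 in prone, -0.25 in supine and -0.08 between positions.

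Medians over members depended on scaling. With centred arrays they were -0.01 (bright members -0.02) in prone, -0.18 (-0.19) in supine, -0.11 (-0.12) in all ventilated lungs and -0.15 in supine against prone. After another quantile normalization they were -0.13 (-0.16) in supine, -0.14 (-0.16) in all ventilated lungs and 0.03 (0.03) in supine against prone. Leaving out 1 array, the prone median over members ranged from -0.20 to -0.08, and with prone 1 and supine 1 both left out it was -0.08 and that of supine against prone -0.15. The causes were not tested. Among named members, signs turned for Rps24 with the mean of its probe sets (0.38 in prone, 0.65 in all ventilated lungs) and for Rpl7 (0.56 and 0.26). With centred arrays Rplp0 and Rps6 were 0.06 in prone lungs. Rpl37-ps2 in supine against control was -0.29 with the replicate block, and -0.38 to 0.56 over single arrays left out. Between positions, Rps4y2 ranged from -0.08 to 0.40 and Rps27l from -0.09 to 0.40 over single arrays left out, and after another quantile normalization Rps6, Rpl5 and Rpl11 were 0.05, 0.01 and 0.05. Signals near the top of the scale may limit what the bright class can show, which was not tested. Those near background limit what Rps13 and Rpl28 can show.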
